A study of Mus musculus with 21 samples.

Results

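The genes described here lost expression when mouse embryonic stem cells (ESCs) were taken off their self-renewal medium and kept more of it when retinoic acid (RA) was present. They were chosen from the time course values themselves, by group means of log2(TPM + 1), where TPM is a level scaled for transcript length and library size. A gene entered if it was lower by at least 1 after 24 h without RA than at 0 h, higher by at least 0.7 with RA than without RA at 24 h and by at least 0.3 at 12 h, and stood at a mean of at least 3 TPM at 0 h. Names that start with Gm, Hox, Cdx, Klf, Tbx, Col or Slc, or end in Rik, were left out. Of 32285 genes, 120 met the conditions on values, 17 of these were left out by name, and 103 remained.

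The data are RNA-seq of poly(A) RNA from 21 ESC libraries, 3 in each of 7 groups. The time course sampled wild type cells at 0 h in serum, LIF and the inhibitors PD0325901 (1 µM) and CHIR99021 (3 µM), together called 2i (ESC_0h), 12 h and 24 h after removal of LIF and 2i (noRA_12h, noRA_24h), and at the same times in 2 µM RA (RA_12h, RA_24h). A separate set compared wild type and Cyp26a1 knockout ESCs that both received 2 µM RA for 24 h once LIF and 2i were gone. Withdrawal of LIF and 2i from the RA-treated time course cells is not stated. In those cells, effects of RA and of retained LIF and 2i cannot be told apart. The labels give neither a knockout clone nor an ESC line, and do not say whether replicates were separate cultures, so all p-values measure only the spread between libraries, which may be technical.

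LIF acts through the kinase JAK and the transcription factor STAT3, PD0325901 blocks the MEK step of the ERK pathway, and CHIR99021 blocks GSK3 and so stabilises beta-catenin. Together they hold mouse ESCs in the naive pluripotent state, and their removal lets the cells leave it. RA enters the nucleus and binds RA receptors, which sit with retinoid X receptors on direct repeats of a short half-site and switch on genes such as those of the Hox clusters, while CYP26A1 breaks RA down and is itself induced by it.

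Cyp26a1 stood at 585 to 606 TPM in the wild type libraries of the knockout set and at 4.03 to 4.93 TPM in the knockout libraries. Pou5f1 and Sox2, which define pluripotent cells, stood at 1605 to 3393 TPM and 91.99 to 271.2 TPM over all 21 libraries. Each time course library had an estimated 2.96 to 3.91 aligned gigabases and each knockout set library 2.72 to 3.24. On the main axis along which libraries of a group differed, RA_24h library 2 (position 51.6 against -16.9 and -29.5), noRA_12h library 1 (31.8 against -43.5 and -13.5) and knockout library 3 (35.6 against -22.7 and -15.3) stood apart from their partners. The housekeeping gene Hprt was listed at 0 to 1.14 TPM in the time course, so a listed 0 does not show absence. In bulk RNA, fewer cells of a type and less RNA per cell cannot be told apart.

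The rule fixes the direction of the time course differences, so these are given as a description with no test. Summed over the 103 genes, the level was 4041 to 4298 TPM in the ESC_0h libraries. It was 1836 to 2073 TPM at noRA_12h and 1149 to 1204 TPM at noRA_24h. With RA it was 3915 to 4023 TPM at 12 h and 2881 to 3390 TPM at 24 h, where RA_24h library 2 gave the lowest sum. The median gene fell by 1.66 on the log2 scale over 24 h without RA, with a range from -4.72 (Tlx2) to -1.004 (Keap1). Most of that fall came early: 58 genes were already lower by 1 or more at noRA_12h, and 73 fell more in the first 12 h than in the second. Musculin (Msc), Cited4 and Mras were the 3 genes above their 0 h level at noRA_12h, before they fell.

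In the RA groups the genes kept their level to very different degrees. The RA_24h mean lay a median of 0.43 below 0 h on the log2 scale (quartiles -0.95 and 0.02), so the median gene had 69.9% of its log2 loss made up. It was at or above the 0 h mean for 29 genes, within 0.5 of it for 45, and lower by 1 or more for 23. Spsb1 (2.13), Grasp (1.58), Crygd (1.04) and Aqp3 (1.02) ended at least 1 above 0 h. Crxos (-2.60), Tlx2 (-2.55), Bcl3 (-2.46), Epp13 (-2.11) and T (-2.04) stayed at least 2 below it and met the rule because they fell further still without RA. For 93 of the 103 genes the difference between RA and no RA was larger at 24 h than at 12 h. The rule set a higher minimum for this difference at 24 h than at 12 h and so favours such a count. Whether the RA difference grew with time therefore cannot be read from it.

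**Figure D1:**
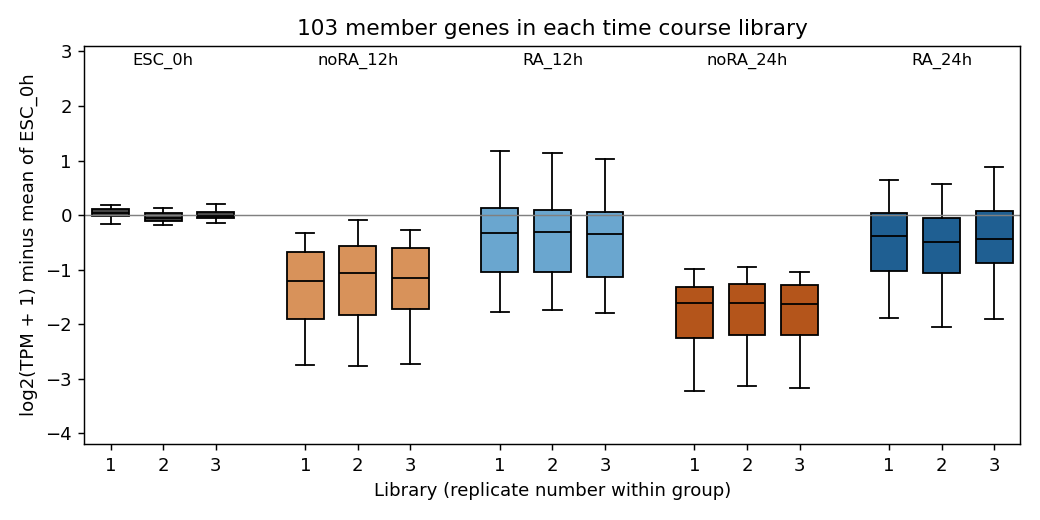
Difference of log2(TPM + 1) from the ESC_0h mean for the 103 genes in each of the 15 time course libraries (x axis, by group and replicate). Boxes span the quartiles with the median as a line, and whiskers run from the 5th to the 95th percentile. The noRA_24h boxes sit lowest, and the RA boxes lie between them and the 0 h level.

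Transcription factors and chromatin proteins were the largest group, with 21 genes. Tle5, a short Groucho-family corepressor, was the most abundant of all 103 genes per transcript length. Its libraries held 404, 363 and 379 TPM at ESC_0h, 186, 186 and 183 TPM at noRA_24h and 526, 439 and 558 TPM at RA_24h. All RA_24h libraries thus lay above the 0 h libraries, and those without RA below them. Elf3, an epithelial ETS factor, went the other way: 352, 305 and 317 TPM at ESC_0h became 46.0, 47.6 and 42.1 TPM at noRA_24h and only 94.2, 85.2 and 99.5 TPM at RA_24h. Macrohistones, histone variants found on inactive chromatin, were both present. H2afy (macroH2A1) went from 227, 228 and 230 TPM at ESC_0h to 46.7, 43.9 and 41.3 TPM at noRA_24h and 110, 92.1 and 108 TPM at RA_24h. H2afy2 (macroH2A2) fell less, from 82.0, 80.7 and 75.8 to 31.2, 34.9 and 32.5 TPM, and was back at 89.1, 76.2 and 92.4 TPM at RA_24h, overlapping the 0 h libraries.

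The homeobox gene Tlx2 had the deepest loss. It stood at 29.7, 26.5 and 30.3 TPM at ESC_0h, at 0.0709, 0.260 and 0.0791 TPM at noRA_24h and at 3.59, 3.87 and 4.96 TPM at RA_24h. Brachyury (T), the mesoderm factor and a WNT target, stood at 9.23, 7.83 and 8.12 TPM at ESC_0h, at 0 to 0.192 TPM at noRA_24h and at 1.14, 1.16 and 1.54 TPM at RA_24h. For these genes a small remainder was left in the RA_24h libraries. Tfap2c, an AP-2 factor of trophoblast and germ cells, had 46.5, 44.8 and 41.5 TPM at ESC_0h, 3.09, 2.25 and 2.05 TPM at noRA_24h and 11.8, 9.86 and 11.04 TPM at RA_24h. Bcl3, an IkB-like coregulator that LIF induces, had 121, 94.2 and 108 TPM at ESC_0h, 12.0, 11.1 and 8.33 TPM at noRA_24h and 18.2, 16.5 and 21.5 TPM at RA_24h. Its RA libraries stayed well under the 0 h libraries. Nfatc2ip, a protein that binds the factor NFATC2, went from 165, 169 and 159 TPM to 55.1, 59.2 and 54.0 TPM without RA and to 112, 106 and 115 TPM with it at 24 h. The other 12 genes of the group are Bhlhe40, Snai1, Msc, Irx2, Crxos, Zfpm1, Jdp2, Stat5b, Cited4, Zfhx2, Msl1 and Kctd1. Over all 21 genes, RA_24h minus ESC_0h ran from -2.60 to 0.78 on the log2 scale.

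Metabolic enzymes and transporters (14 genes) held the gene with the largest RA difference. Aqp3, a channel for water and glycerol (mm10 chr4:41092722-41098183, minus strand), stood at 90.4, 86.3 and 93.2 TPM at ESC_0h and at 6.05, 4.33 and 5.97 TPM at noRA_24h. With RA it stood at 378, 383 and 384 TPM at 12 h and 198, 161 and 191 TPM at 24 h. Both RA groups lay above the 0 h libraries, and RA_24h minus noRA_24h was 4.84 on the log2 scale. Cidea, a lipid droplet protein, had 18.1, 18.7 and 17.3 TPM at ESC_0h, 2.69, 1.69 and 1.95 TPM at noRA_24h and 20.8, 22.0 and 26.5 TPM at RA_24h. Bhmt, which remethylates homocysteine with betaine, had 22.7, 24.9 and 23.7 TPM at ESC_0h, 1.30, 2.71 and 1.74 TPM at noRA_24h and 16.7, 13.1 and 14.6 TPM at RA_24h. Cidea with RA thus exceeded its 0 h level, while Bhmt stayed under it. Tgm2, the tissue transglutaminase and a known RA target, had 36.9, 32.2 and 31.7 TPM at ESC_0h, 2.70, 2.96 and 3.33 TPM at noRA_24h and 9.08, 7.65 and 9.49 TPM at RA_24h. The group also holds Tgm1, the transglutaminase of cornified epithelium, Ptges, a prostaglandin E synthase, Alox12, a lipoxygenase, Mogat2, a monoacylglycerol acyltransferase, Egln1, the oxygen-sensing prolyl hydroxylase of HIF, and Ggt1, Nags, Naglu, Flvcr2 and Nxn. RA_24h minus ESC_0h ran from -1.96 to 1.02 in the group.

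Of the 16 genes of intracellular signalling and protein turnover, 2 rose furthest past their starting level with RA. Spsb1, which hands proteins to a ubiquitin ligase, stood at 11.4, 11.8 and 11.2 TPM at ESC_0h, 4.25, 4.25 and 4.91 TPM at noRA_24h and 59.1, 46.4 and 56.4 TPM at RA_24h. Grasp, a scaffold protein of receptor trafficking, stood at 26.2, 25.1 and 22.4 TPM at ESC_0h, 10.4, 9.92 and 8.58 TPM at noRA_24h and 77.4, 67.7 and 81.5 TPM at RA_24h. In both genes each RA_24h library exceeded every 0 h library. The other 14 genes are the GTPase genes Mras and Rnd1, Arhgap9, the kinase genes Rps6ka4, Map3k6 and Cdk18, the phosphatase subunit genes Ppp2r2c and Ppp1r14d, Plekhm2, Keap1, the ubiquitin ligase gene Arih2, the calcium sensor genes Cabp1 and Hpcal1, and the pore-forming gasdermin Gsdmd. Among the cytoskeleton and membrane scaffold genes, RA_24h minus ESC_0h was -1.84 for Stmn3, -0.29 for Frmd6, -0.14 for Rftn1 and 0.26 for Map6.

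**Figure D2:**
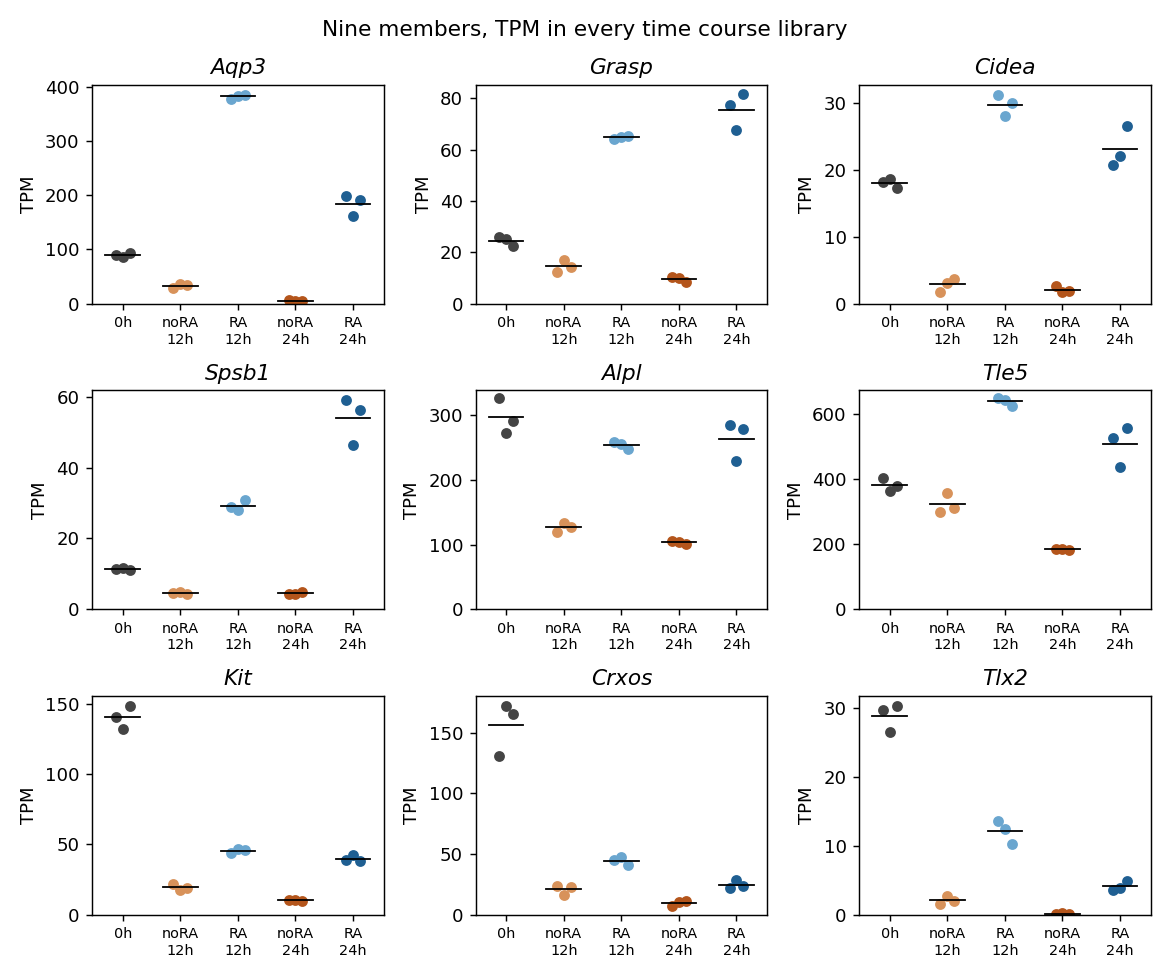
TPM of 9 genes in each time course library (points, linear axis from 0), with a line at each group mean. Aqp3, Grasp and Spsb1 stand higher with RA than at 0 h, whereas Crxos, Tlx2 and Kit stay far below their 0 h level in every group.

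The 14 receptor, ligand and modulator genes touch several pathways. Kit, the stem cell factor receptor, was the most abundant at 0 h, with 140, 132 and 149 TPM, and had 10.2, 10.7 and 9.76 TPM at noRA_24h and 38.9, 42.2 and 38.5 TPM at RA_24h. Efnb1, an ephrin ligand, had 5.28, 5.71 and 5.77 TPM at ESC_0h, 1.16, 0.834 and 0.833 TPM at noRA_24h and 10.3, 8.60 and 11.4 TPM at RA_24h. Kit with RA stayed under its 0 h level, and Efnb1 went above it. Ephb2, a receptor that binds such ligands, had 11.3, 10.9 and 9.29 TPM at ESC_0h, 4.56, 3.53 and 4.28 TPM at noRA_24h and 9.22, 7.44 and 7.31 TPM at RA_24h. Bmp7, a BMP ligand, had 12.6, 12.5 and 12.4 TPM at ESC_0h, 1.47, 1.54 and 1.34 TPM at noRA_24h and 4.31, 3.02 and 3.22 TPM at RA_24h. The rest are the BMP coreceptor Rgma, the TGF-beta coreceptor Tgfbr3 and the latent TGF-beta binding protein Ltbp3, the WNT receptor Ror2, the PDGF receptor Pdgfrb, and Scube3, Sema4f, Cxcl14, Ism2 and the proprotein convertase Furin.

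Secreted and surface proteins and the secretory pathway made up 17 genes. Alpl, the alkaline phosphatase long used to stain ESCs, stood at 327, 273 and 291 TPM at ESC_0h, 106, 103 and 101 TPM at noRA_24h and 284, 229 and 279 TPM at RA_24h. Tinagl1, a basement membrane protein, stood at 18.6, 20.01 and 19.6 TPM at ESC_0h, 4.03, 4.34 and 4.41 TPM at noRA_24h and 35.2, 30.0 and 36.7 TPM at RA_24h. Alpl with RA overlapped its 0 h libraries, and Tinagl1 exceeded them. Serpinh1, the collagen chaperone HSP47 (mm10 chr7:99345376-99353239, minus strand), stood at 52.2, 45.6 and 51.5 TPM at ESC_0h, 16.0, 18.9 and 16.8 TPM at noRA_24h and 73.5, 61.6 and 78.9 TPM at RA_24h. Fbln1, Wfdc2, Oaf, Parm1 and the secreted glycoprotein Creg1 complete the matrix and surface group. Kdelr3, Pdia5, Emc9, Ap3b2, Reep1, Galnt2, Hs3st3b1, Tmem181a and Myorg complete the group of the endoplasmic reticulum and secretory pathway. Germline and testis genes were Rec8, a meiotic cohesin subunit, Pramel6, Tdrp and Stpg1. Rec8 stood at 33.9, 29.0 and 26.9 TPM at ESC_0h, 7.72, 9.86 and 8.58 TPM at noRA_24h and 27.2, 23.0 and 25.9 TPM at RA_24h. The remaining 10 genes (Letmd1, Mmd, C2cd4b, Ypel2, Lrrc75a, Rpp25, Epp13 and the transcripts Bvht, Dnah2os and CAAA01066123.1) were given no group.

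The gamma crystallins Cryge and Crygd, known as lens proteins, are neighbours 10.7 kb apart on chromosome 1. Cryge stood at 3.39, 2.90 and 4.32 TPM at ESC_0h, 0.470, 0.784 and 0.469 TPM at noRA_24h and 5.53, 5.72 and 9.31 TPM at RA_24h. Crygd stood at 2.71, 4.39 and 4.77 TPM at ESC_0h, 0.488, 1.10 and 0.723 TPM at noRA_24h and 6.53, 9.14 and 12.2 TPM at RA_24h. Both rank among the least abundant of the 103 genes at 0 h. They are close paralogs, so reads may have been split between them and other crystallins. Their promoters are shown because the genes moved together here and in the knockout: 250 bases before each RefSeq start (GRCm38.p6), Cryge at chr1:65051164-65051413 and Crygd at chr1:65063441-65063690, both on the minus strand. Capitals mark the longest run that both share, 56 bases, which ends 1 base before the Cryge start and 13 bases before the Crygd start.
Cryge: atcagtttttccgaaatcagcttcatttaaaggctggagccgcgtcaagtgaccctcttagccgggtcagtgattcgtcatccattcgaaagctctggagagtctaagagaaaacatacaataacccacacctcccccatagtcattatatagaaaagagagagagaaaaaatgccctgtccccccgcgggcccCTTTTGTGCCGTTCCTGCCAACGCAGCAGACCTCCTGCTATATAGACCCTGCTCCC
Crygd: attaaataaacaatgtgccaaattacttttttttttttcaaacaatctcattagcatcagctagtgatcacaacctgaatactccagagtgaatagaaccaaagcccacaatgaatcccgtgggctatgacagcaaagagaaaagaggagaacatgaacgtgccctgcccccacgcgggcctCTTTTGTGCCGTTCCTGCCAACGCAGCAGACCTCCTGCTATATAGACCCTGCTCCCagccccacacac
Over 234 aligned pairs of bases the windows were 69.7% identical. Neither holds the exact letters AGGTCA on either strand, and other forms of the RA half-site were not searched.

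RefSeq promoter windows of 300 bases (250 before to 50 after a start) were found for 79 of the 103 genes, 99 windows in all. Around the start, 73 of the 99 windows held the first 20 bases of a GENCODE transcript listed under the same symbol. For the other windows the start was not matched in this way. The half-site AGGTCA, read on both strands, was present in 16 of these 99 windows (16.2%), next to 16.3% of all 32851 windows. Spsb1 and Bhmt are shown as examples of genes that have it and had a large RA difference, at chr4:149955007-149955256 and chr13:93637759-93638008, both on the minus strand. The other genes among the 8 largest RA differences (Aqp3, Cidea, Grasp, Tinagl1, Crygd and Efnb1) were not among those in which it was found. A gene without a window could not be searched. The examples therefore do not link the half-site to the size of the RA difference. Capitals mark AGGTCA or its complement TGACCT.
Spsb1: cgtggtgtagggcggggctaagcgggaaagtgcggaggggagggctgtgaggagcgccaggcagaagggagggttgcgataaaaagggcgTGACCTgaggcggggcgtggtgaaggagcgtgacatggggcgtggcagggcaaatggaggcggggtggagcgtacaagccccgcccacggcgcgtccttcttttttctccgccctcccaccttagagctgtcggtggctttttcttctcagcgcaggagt
Bhmt: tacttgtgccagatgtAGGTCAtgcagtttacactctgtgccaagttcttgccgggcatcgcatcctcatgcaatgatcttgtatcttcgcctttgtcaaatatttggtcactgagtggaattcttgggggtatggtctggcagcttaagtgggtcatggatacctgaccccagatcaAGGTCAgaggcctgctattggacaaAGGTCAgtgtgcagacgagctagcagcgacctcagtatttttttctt
Half-sites begin 160 bases before the start in Spsb1, and 234, 72 and 47 bases before it in Bhmt. The full repeats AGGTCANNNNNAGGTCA and AGGTCANNAGGTCA, each of which contains the half-site, were found in no window of these genes and in 3 of the 32851 windows each. The TCF/LEF motif ATCAAAG was in 4.04% of their windows and 3.73% of all, and the STAT motif TTCNNNGAA in 6.06% and 8.30%. These matches are a description of the exact letters in these windows, and variant forms of the half-site and repeats were not searched. The median GC content of the 103 genes' transcripts was 55.3%, that of all tested genes 50.3%, and that of the 607 other genes that fell by 1 or more without RA 54.2%.

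The rule used no values of the knockout set, so the genes were tested there, although the rule itself was written with earlier results of these data known. Of the 103 genes, 99 were tested: Dnah2os and CAAA01066123.1 have no matching entry there, and T (mean 0.833 TPM in wild type) and Nags (0.248 TPM) did not reach 1 TPM in 3 libraries. With limma on log2(TPM + 1), adjusted over all 12848 tested genes (Benjamini-Hochberg, adjusted p below 0.05), 15 of the 99 genes were higher in the knockout and 19 were lower. That is 15.2% and 19.2% of them, where 3.34% of all tested genes were higher, 6.65% lower and 9.99% either. Among the 535 tested genes that also fell without RA but did not meet the rest of the rule, 8.41% were higher and 8.04% lower. The median change of the 99 genes was -0.11 and that of all genes -0.05 on the log2 scale, with quartiles of -0.33 and 0.23 against -0.20 and 0.08. The groups did not overlap for 25 of the 99 genes in the upward direction and for 36 in the downward direction. Over all tested genes, 10.6% did not overlap upward and 22.1% downward.

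The number of calls depends on single libraries. It fell from 34 to 12, 14 and 15 without wild type library 1, 2 or 3 and to 17 without knockout library 2, while it was 24 without knockout library 1 and 48 without knockout library 3, the library that stood apart. The calls of Msc, Cited4, Tdrp, Tgm1 and Cabp1 (higher) and of Cryge, Zfpm1, Creg1, Serpinh1, Ap3b2 and Egln1 (lower) held without each of the 6 libraries in turn, and every other call among the 99 genes was lost without at least 1 of them. The direction split of the calls also moved with scaling: of all genes called, 33.4% were higher as deposited, 48.2% after median-of-ratios scaling, 45.3% after quantile normalization and 51.7% after a correction for GC content and length. The 99 genes then split into 18 higher and 16 lower, 15 and 16, and 21 and 20.

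**Figure D3:**
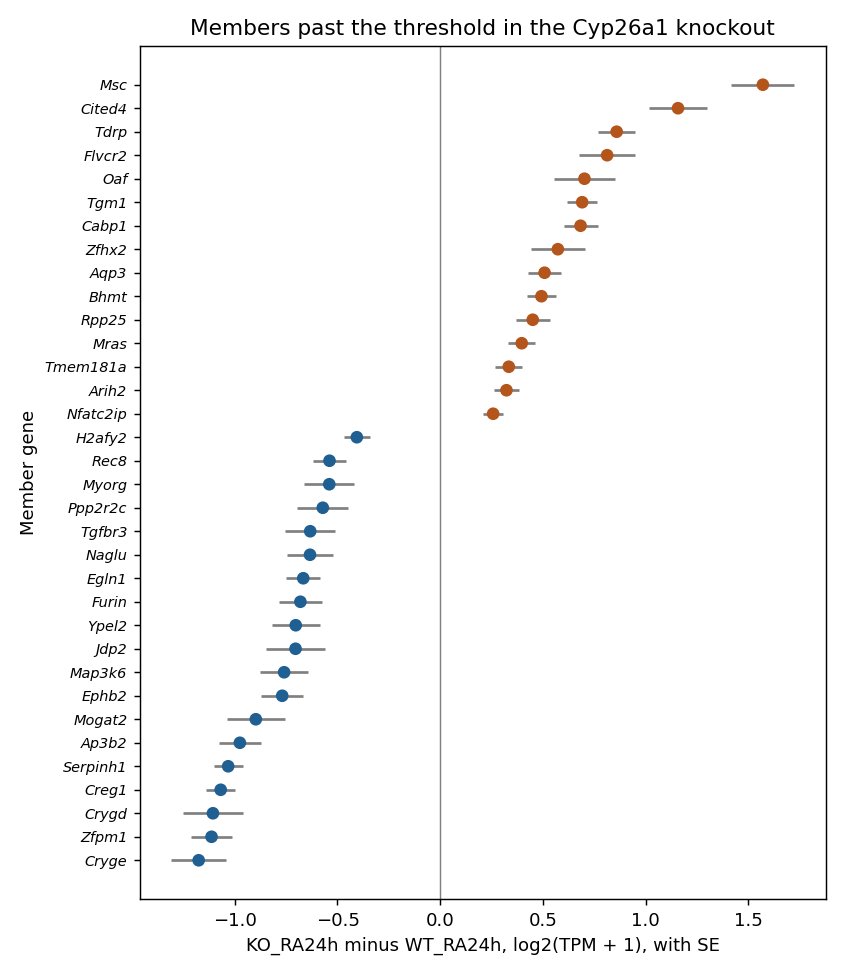
Knockout minus wild type difference of log2(TPM + 1) after 24 h of RA for the 34 genes called, with bars of 1 standard error (3 libraries a group). Msc (1.57) and Cited4 (1.16) lie at the upper end and Cryge (-1.18) at the lower end.

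Msc, a basic helix-loop-helix repressor (mm10 chr1:14753346-14755992, minus strand), rose most in the knockout. It stood at 5.02, 4.05 and 5.13 TPM in wild type and 18.7, 16.6 and 13.1 TPM in knockout libraries, a difference of 1.57 (SE 0.15, limma adjusted p = 0.00303). Cited4, a coactivator of CBP and p300, stood at 8.27, 6.47 and 8.38 TPM and 21.5, 16.5 and 17.3 TPM (1.16, SE 0.14, limma adjusted p = 0.00601). Both groups of libraries were well separated. Tdrp, a testis protein, stood at 19.08, 20.3 and 18.7 TPM against 37.5, 38.4 and 32.2 TPM in the knockout (0.86, SE 0.09, limma adjusted p = 0.00377). Tgm1 stood at 64.6, 63.6 and 61.8 TPM against 105, 110 and 93.9 TPM (0.69, SE 0.07, limma adjusted p = 0.00376). Cabp1, a calcium sensor, stood at 64.0, 58.1 and 59.1 TPM against 108, 95.5 and 89.9 TPM (0.68, SE 0.08, limma adjusted p = 0.00596). All 3 knockout libraries exceeded all 3 wild type libraries for these genes.

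Flvcr2, a heme and choline transporter, stood at 2.62, 3.26 and 3.90 TPM in wild type and 6.14, 6.45 and 6.71 TPM in the knockout (0.81, limma adjusted p = 0.0170). Oaf, a secreted protein, stood at 3.08, 2.28 and 2.14 TPM against 4.67, 5.24 and 4.12 TPM (0.70, limma adjusted p = 0.0316). Zfhx2, a zinc finger homeobox factor, stood at 19.12, 17.2 and 18.5 TPM against 23.1, 27.8 and 32.8 TPM (0.57, limma adjusted p = 0.0413). Each of these 3 calls was lost without 3 or more of the 6 libraries in turn, with an adjusted p of up to 0.0773, 0.130 and 0.155. Aqp3 stood at 110, 107 and 110 TPM in wild type and 168, 163 and 137 TPM in the knockout (0.51, limma adjusted p = 0.0149), and Bhmt at 26.0, 26.2 and 28.2 TPM and 36.2, 40.4 and 37.8 TPM (0.49, limma adjusted p = 0.0111). Both calls were lost without at least 2 of the 6 libraries in turn, with an adjusted p of up to 0.0786 and 0.0723. Rpp25, Mras, Tmem181a, Arih2 and Nfatc2ip rose by 0.26 to 0.45. With replicate number as a block, Tmem181a (adjusted p = 0.0594) and Nfatc2ip (0.0582) no longer passed.

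Among the genes that fell in the knockout, the crystallins were lowest. Cryge stood at 15.5, 19.3 and 17.4 TPM in wild type and 6.67, 8.47 and 6.37 TPM in knockout libraries (-1.18, SE 0.13, limma adjusted p = 0.00507). Crygd stood at 15.2, 16.8 and 15.8 TPM against 8.09, 7.37 and 5.39 TPM (-1.11, SE 0.15, limma adjusted p = 0.00762). The call of Crygd was lost without wild type library 2 (adjusted p = 0.0505). Zfpm1 (FOG1), a cofactor of GATA factors (mm10 chr8:122282141-122337251, plus strand), stood at 18.1, 17.2 and 16.7 TPM against 6.95, 8.45 and 7.09 TPM (-1.11, SE 0.10, limma adjusted p = 0.00240). Creg1 stood at 44.4, 45.4 and 47.2 TPM against 20.4, 22.7 and 20.7 TPM (-1.07, SE 0.07, limma adjusted p = 0.000886). Serpinh1 stood at 163, 163 and 161 TPM against 83.8, 82.0 and 71.4 TPM (-1.03, SE 0.07, limma adjusted p = 0.000976). Each of these 5 genes had every knockout library below every wild type library.

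Ap3b2, an adaptor subunit of vesicle transport, stood at 12.5, 11.4 and 11.2 TPM in wild type and 5.80, 4.96 and 5.61 TPM in the knockout (-0.98, SE 0.10, limma adjusted p = 0.00370). Mogat2 stood at 4.502, 3.36 and 3.87 TPM against 1.62, 1.37 and 1.91 TPM (-0.90, SE 0.14, limma adjusted p = 0.0137). Ephb2 stood at 3.18, 3.15 and 3.29 TPM against 1.53, 1.38 and 1.496 TPM (-0.77, SE 0.10, limma adjusted p = 0.00781). The calls of Mogat2 and Ephb2 were lost without wild type library 1 or 3, and that of Mogat2 also without knockout library 2 (adjusted p up to 0.0744 and 0.0555). Map3k6, Jdp2, Ypel2, Furin, Egln1, Naglu, Tgfbr3, Ppp2r2c, Myorg, Rec8 and H2afy2 fell by 0.41 to 0.76 on the log2 scale. Myorg no longer passed with replicate number as a block (adjusted p = 0.0708), and Jdp2, Myorg and H2afy2 did not pass after median-of-ratios scaling (adjusted p = 0.0511, 0.0603 and 0.0567).

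**Figure D4:**
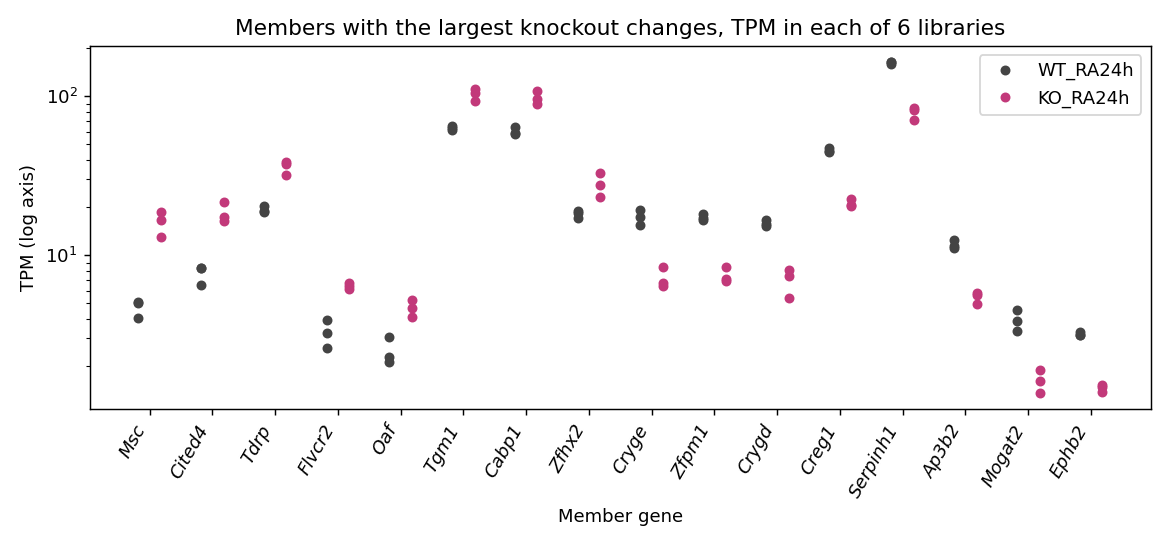
TPM (log axis) of 16 called genes in each wild type and knockout library after 24 h of RA. These are the 8 with the largest rise and the 8 with the largest fall, and in all 16 the libraries of the groups lie apart.

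By function, the calls were spread over most groups. Of the 20 tested transcription and chromatin genes 4 rose (Msc, Cited4, Zfhx2, Nfatc2ip) and 3 fell (Zfpm1, Jdp2, H2afy2). Of 13 metabolic genes 4 rose (Flvcr2, Tgm1, Aqp3, Bhmt) and 3 fell (Mogat2, Egln1, Naglu). In the endoplasmic reticulum and secretory group of 10, Serpinh1, Ap3b2 and Myorg fell and Tmem181a rose. Of the 14 receptor and ligand genes 3 fell (Ephb2, Furin, Tgfbr3), and the other 11, Kit and Bmp7 included, did not pass. In signalling and turnover (16 genes) Cabp1, Mras and Arih2 rose and Map3k6 and Ppp2r2c fell. The cytoskeleton genes Map6, Stmn3, Frmd6 and Rftn1 did not pass, with Rftn1 at -0.26 (adjusted p = 0.201). Spsb1, Grasp and Cidea, which stood much higher with RA than without it in the time course, did not pass: Spsb1 stood at 22.7, 22.1 and 20.7 TPM in wild type and 23.4, 25.5 and 23.5 TPM in the knockout (adjusted p = 0.314), Grasp at 92.6, 87.6 and 85.7 TPM and 71.6, 86.8 and 76.6 TPM (0.230), and Cidea at 32.9, 39.7 and 32.5 TPM and 46.9, 42.8 and 37.6 TPM (0.198).

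The direction in the knockout went with the course under RA from 12 h to 24 h. Of all 99 genes, 58 stood lower and 41 higher at RA_24h than at RA_12h in the time course. All 15 genes that were higher in the knockout stood lower at RA_24h than at RA_12h (median -0.64). Of the 19 that were lower in the knockout, 17 stood higher at RA_24h than at RA_12h (median 0.59), and Ephb2 (-0.08) and Furin (-0.14) were the exceptions. The counts were the same without RA_24h library 2. Over the 99 genes Pearson's r was -0.65 and Spearman's rho -0.70, given as a description, since the genes share the same libraries. The pattern is not particular to these genes: over all 12107 genes tested in both sets, 85.3% of those higher in the knockout were lower at RA_24h than at RA_12h and 84.7% of those lower in it were higher (r = -0.38). Whatever their knockout change, 43.0% of the 12107 genes were lower and 57.0% higher at RA_24h than at RA_12h.

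**Figure D5:**
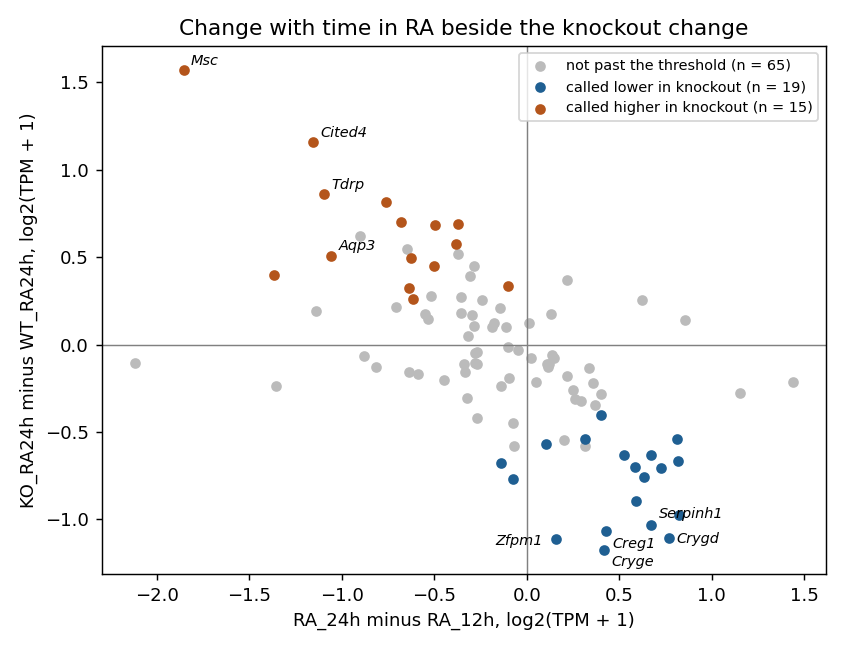
Each point is 1 of the 99 genes, with RA_24h minus RA_12h in the time course on the x axis and knockout minus wild type on the y axis, both as differences of log2(TPM + 1). Genes higher in the knockout lie to the left of 0 and most of those lower in it lie to the right.

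Msc shows the first pattern in levels: it had 31.3, 32.0 and 29.2 TPM at RA_12h and 8.05, 6.14 and 9.55 TPM at RA_24h. Cited4 had 33.6, 32.8 and 33.3 TPM at RA_12h and 15.6, 12.1 and 15.6 TPM at RA_24h. For both, every RA_24h library lay below every RA_12h library. Serpinh1 shows the second, with 44.2, 46.4 and 41.9 TPM at RA_12h and 73.5, 61.6 and 78.9 TPM at RA_24h. Creg1 had 13.1, 14.1 and 10.7 TPM and then 17.2, 16.6 and 17.9 TPM. Without RA, 91 of the 99 genes stood lower at 24 h than at 12 h, which the rule favours, among them all 15 that were higher in the knockout and 17 of the 19 that were lower. Pearson's r between this difference without RA and the knockout change was -0.43 over the 99 genes and -0.17 over all genes.

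For most lists of markers of other cell types, the summed TPM of wild type and knockout libraries did not overlap. The neuroectoderm sums did overlap. The summed level of 14 primitive endoderm markers was 650 to 700 TPM in wild type and 335 to 357 TPM in knockout libraries, with all 14 at a mean of 1 TPM or more in both groups. In the time course this sum was 309 to 344 TPM at ESC_0h, with 7 of 14 markers at 1 TPM or more. It was 316 to 328 TPM at noRA_24h (7 of 14) and 476 to 559 TPM at RA_24h (14 of 14). At 12 h it was 544 to 620 TPM without RA (6 of 14) and 532 to 536 TPM with RA (8 of 14). The fibroblast list summed to 541 to 573 TPM in wild type and 260 to 305 TPM in the knockout, with 2 of its 10 markers at 1 TPM or more and Lum and Postn at 0 in both groups. Trophoblast markers summed to 157 to 168 TPM and 127 to 141 TPM (8 of 11 at 1 TPM or more in both), and those of the two-cell-like state to 16.1 to 23.5 TPM and 6.45 to 15.0 TPM (5 and 3 of 10). Mesoderm markers summed to 12.6 to 16.9 TPM and 18.1 to 21.3 TPM (1 and 3 of 12), and neuroectoderm markers to 38.0 to 43.7 TPM and 41.4 to 49.9 TPM. The part of these cells in the changes above was not tested.

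Genes of the pathways around these 103, which are not among them, were counted in the same knockout test. There, 3.34% of all tested genes were higher and 6.65% lower. Of 19 naive pluripotency genes 9 were higher, with Nanog (1.32), Nr0b1 (1.31) and Prdm14 (1.27) at the top, and the other 10 did not pass. Of 14 general pluripotency genes 5 were higher, with Tdgf1 at 0.92. Of 21 known RA targets 10 were lower and 2 higher. The 10 include Cyp26a1 itself (-6.76), whose fall the knockout fixed in advance. Of the others, the endoderm factor Gata6 (-1.09) and Cyp26b1 (-1.08) changed most. The naive genes that passed were thus all higher and most RA targets that passed were lower. Of the 2 RA targets among the 103 genes, Aqp3 rose and Tgm2 (6.08, 4.89 and 6.04 TPM in wild type, 3.77, 4.04 and 2.91 TPM in the knockout) did not pass (adjusted p = 0.0621). Of 23 WNT genes 6 were higher and 5 lower, among them Notum (1.32) and Dkk1 (-1.42).

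The formative and primed list had 3 of 15 genes higher and 3 lower. LIF and STAT3 genes had 1 of 16 higher (Tfcp2l1, 0.62) and 1 lower (Il6st, -0.64), and Bcl3, the gene of that list among the 103, did not pass (14.0, 14.4 and 13.3 TPM against 18.1, 16.0 and 14.8 TPM, adjusted p = 0.234). ERK feedback genes had 1 of 14 higher and 2 lower, BMP genes 2 of 14 higher and 2 lower, and Nodal genes 3 of 15 higher and 3 lower. Of these pathways, Bmp7 was the BMP gene among the 103 and stood at 1.86, 2.03 and 1.51 TPM against 1.58, 1.68 and 1.07 TPM (adjusted p = 0.478). Germline genes had 4 of 21 higher and 2 lower, and Rec8 fell from 47.9, 48.0 and 46.6 TPM to 35.4, 32.6 and 29.4 TPM (-0.54, limma adjusted p = 0.0117). Surface and adhesion genes had 4 of 16 higher and 1 lower, Notch genes 1 of 13 lower, and cholesterol and fatty acid synthesis genes 7 of 19 lower. With limma, 0 of 10 heat shock genes passed, 4 of them at an unadjusted p below 0.05.

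In the time course, where these other genes were not chosen by the rule, 12 of the 19 naive genes were lower and 4 higher at noRA_24h than at ESC_0h (limma adjusted p below 0.05, where 26.5% of all tested genes were lower and 25.4% higher). With RA at 24 h, 6 of the 19 were higher than without it and 8 lower (22.8% and 12.5% of all genes). Both comparisons share the noRA_24h libraries. Of 20 tested RA targets, 18 were higher with RA at 24 h. The call counts of the RA comparison rested on RA_24h library 2, without which 3861 genes were higher and 3567 lower instead of 3178 and 1737, and after the GC and length correction they were 2550 and 3000.

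Some of the 103 genes lie close together: Emc9, Rec8 and Tgm1 on chromosome 14 (gaps of 32.7 and 74.6 kb), and Mogat2, Map6 and Serpinh1 on chromosome 7 (28.8 and 8.24 kb). In the knockout Rec8 fell and Tgm1 rose, while Mogat2 and Serpinh1 both fell, as did Cryge and Crygd. The annotation places 39 of the genes over another gene, 35 of them over one on the opposite strand, and since strand is not stated for the counting their levels could hold reads of that gene. CAAA01066123.1 overlaps Rps6ka4 on the same strand.

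The thresholds divide genes with nearly equal values. Keap1 (-1.004) and Hpcal1 (-1.01) lay just inside the limit on the fall, and Rbakdn and Dusp14 (both -0.99) just outside. Stmn3 and Wfdc2 (both 0.70) lay inside the limit on the RA difference at 24 h and Msi1 and Ston1 (both 0.68) outside. At 12 h, Myorg and Msc (both 0.31) lay inside and Camk2a (0.29) and Pdlim4 (0.25) outside. For the 0 h level, Map3k6 (3.07 TPM) and C2cd4b (3.18 TPM) lay inside and Plcl2 (2.91 TPM) and Hal (2.89 TPM) outside. C2cd4b rested on uneven libraries, with 4.89, 1.22 and 3.44 TPM at ESC_0h. Of the 438 genes that missed the rule by their name or by 1 condition, those whose 5 group means most resembled the mean profile of the 103 genes were Dnah17 (Pearson's r 0.987), Hoxb13 (0.985), Zfp768 (0.984), Ccdc51 (0.974) and Cdiptos (0.971).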

How the data were processed

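Per the submitters' processing notes, HISAT2 aligned the reads (build mm10) and StringTie estimated levels. The versions, like the parameters, were not given in the sources used here. As deposited, the files hold 1 gene table per library. Its TPM and FPKM values are scaled for length and library size, per the file headers, and its coverage is the mean read depth per base, per the file headers. Read counts were not used. TPM was the main unit, FPKM an alternative, and the most common ratio of coverage to FPKM gave an estimate of the aligned gigabases. Among genes above 1 FPKM, 9.79% to 10.5% shared that ratio in time course libraries. In knockout set libraries 55.7% to 56.5% did, so the time course depths are less certain. Time course and knockout tables list different genes and scales (Gapdh 5786 to 7659 TPM and 131 to 213 TPM), so levels were not compared between them.

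Tests used limma 3.58.1 (R 4.3.3, eBayes with a trend) on log2(TPM + 1), 1 model per set, over genes that reached 1 TPM in 3 or more libraries of that set, at a Benjamini-Hochberg adjusted p below 0.05. With a pseudocount of 1, log2 changes understate those of low genes. Groups came from the sample titles. The members and the 14 gene lists and 6 marker lists were chosen with earlier results of these data known, and function groups were assigned by hand. Genes given in full were the 8 largest rises and falls in the knockout, the 8 largest RA differences, the 5 highest levels at 0 h, members of the lists and the genes nearest each threshold; Kit, Tlx2, H2afy2 and Serpinh1 in the time course were added after their values were seen. In the knockout set, deviations of wild type and knockout libraries with the same number from their group means correlated at 0.32, 0.19 and 0.54. No label says that numbers pair libraries, so the main fit was unpaired. A block on replicate number was used as an alternative. Some values of 1 member are not reported here. H2afy and H2afy2 were matched to the knockout table by another symbol. Alternatives are given in the closing section, and tests were checked on simulated data. The simulated noise was independent between genes, unlike the shared axis along which libraries of a group differed. That check therefore cannot show how far the calls depend on single libraries. Promoters are from RefSeq (GRCm38.p6), GC content and length from GENCODE transcripts, and figures were made with matplotlib 3.10.9.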

Additional observations from a re-analysis of the deposited data

How the results depend on the processing

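The number of genes that meet the rule was 103 as deposited, 161 with a pseudocount of 0.1, 60 with FPKM, 65 with a mean of at least 10 TPM at 0 h, 53 with the 3 difference thresholds raised by 25% and 192 with them lowered by 20%. It was 92 to 112 without each library in turn, and 70 of the 103 genes met the rule in all 15 such settings. A correction for GC content and length, chosen after seeing the data, gave 72 genes, of which 60 are among the 103. Of the genes whose knockout call held without each library in turn, Tdrp, Cryge, Zfpm1 and Ap3b2 still met the rule after this correction. Msc, Cited4, Tgm1, Cabp1, Creg1, Serpinh1 and Egln1 did not, so their place among the 103 depends on the scale as deposited. Knockout calls over all genes ranged from 293 to 3160 without each library in turn (1284 with all), and those among the members from 12 to 48 (34 with all). With the replicate number as a block, 33 members were called (15 higher, 18 lower) and 1162 genes in all; Rnd1 and Ppp1r14d were gained, and the calls of Nfatc2ip, Tmem181a and Myorg were lost. In the time course, same-numbered libraries did not deviate together (correlations of -0.39 to 0.28), and a block gave 4424 instead of 4915 calls for RA at 24 h and 6822 instead of 7244 for withdrawal. Without each library in turn, RA calls ranged from 3720 to 7428. Of the 16 knockout changes described in full, 6 lost their call under at least 1 setting: Crygd, Ephb2, Flvcr2 and Mogat2 only without single libraries, and Oaf and Zfhx2 also with no filter (adjusted p = 0.0559 and 0.0632). The cause was not tested, and no change reversed its direction. Each group has 3 libraries, read counts were not used, and counting error of low genes such as Cryge, Crygd and Mogat2 is therefore unknown.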
